A study of Mus musculus with 2 samples.

Results

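Sox21 and other members of the Sox family of transcription factors were examined in mouse embryo fibroblasts (MEFs) from Ebp1 knock out and wild type embryos. All probe sets annotated to Sox21, Sox2, Sox4, Sox5, Sox6, Sox9, Sox11, Sox12, Sox17 or Sox18 and to no other gene were taken, which gave 37 of the 45037 probe sets on the array and 10 of 18193 genes. These 10 genes were selected on the signals of the same arrays, in which Sox21 had already stood out, so their signals and ratios are a description and no count among them is a test. For each gene the brightest probe set, that with the highest mean log2 signal, is given together with all the others.

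Each genotype was measured on 1 array, and both cultures came from day 12.5 embryos and were at passage 2. The Ebp1 knock out MEFs are described as carrying a retroviral gene trap in intron 2 of Pa2g4, the mouse gene of Ebp1, on both alleles. The ES cells that carried the trap were of another strain than C57BL/6, to which the chimeras were mated, so the background is mixed. The wild type MEFs lack the trap, and both cultures were grown in medium with fetal bovine serum. The trapped line goes back to a single ES cell clone, and the sources used here do not give the number of embryos behind each culture. With 1 array per genotype there is no spread between replicates, so no error and no p-value is given for any value. In a culture of many cells, a larger share of cells with a transcript and more transcript per cell cannot be told apart. The signals are intensity units on a linear scale, which the authors scaled to the same target on both arrays. Signals under 100 were treated as low, which was the case for 57.1% of probe sets on the knock out array and 57.9% on the wild type array. Where 1 of the 2 signals was low, it was raised to 100 and the fold is a lower bound, and where both were low no ratio was formed. Pa2g4 itself was 1178 in knock out and 1835 in wild type MEFs on its brightest probe set (-0.64 as the log2 of the knock out signal divided by the wild type signal, the form of all log2 ratios given here). Of its 5 probe sets, the 4 measured on both arrays were all lower in knock out MEFs, but the signal remained at 53.8% to 79.8% of that in wild type MEFs. These shares are for the signals as the authors scaled them. The log2 ratio of the brightest probe set was -1.03 when the arrays were scaled to the spike-in controls. Probe sets annotated to the targeted gene thus still gave signal on the array labelled knock out. The authors report that knock out MEFs lacked the Ebp1 transcript by RT-PCR and the protein by Western blot. The sources used here do not place these probe sets relative to the trap or say whether the same cultures were assayed. For these 2 arrays the genotype names and every direction given rest on the labels.

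Sox proteins bind the minor groove of DNA through a high mobility group box and bend it, and they mostly act with partner factors on shared sites. They are grouped by the sequence of this box. Sox2, with Sox1 and Sox3, keeps neural progenitors undifferentiated, and Sox2 is also a core pluripotency factor. Sox21 belongs with Sox14 to a branch of the SoxB group that mainly represses transcription and counteracts Sox2 and its relatives. In the mouse, Sox21 is known for neurogenesis and for the hair shaft. Sox4, Sox11 and Sox12 form the SoxC group of many embryonic progenitors and mesenchyme. Sox5 and Sox6 of the SoxD group work with Sox9 of the SoxE group in cartilage. Sox17 and Sox18 belong to the SoxF group of endothelium and endoderm.

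The 250 bases upstream of the annotated start of Sox21 and of Sox4 are shown because these were the only 2 of the 10 genes whose brightest probe set reached 500 on either array. Both are from RefSeq (GRCm38.p6) and are read on the minus strand, from chr14:118237031-118237280 for Sox21 and from chr13:28953700-28953949 for Sox4. Capitals mark each CG dinucleotide and each CCAAT, which is written ATTGG where it lies on the opposite strand.
Sox21: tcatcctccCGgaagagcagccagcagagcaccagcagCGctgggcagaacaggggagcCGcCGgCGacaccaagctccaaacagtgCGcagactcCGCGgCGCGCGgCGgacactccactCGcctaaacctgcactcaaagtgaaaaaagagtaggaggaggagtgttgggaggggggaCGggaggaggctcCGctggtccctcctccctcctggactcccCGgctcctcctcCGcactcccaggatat
Sox4: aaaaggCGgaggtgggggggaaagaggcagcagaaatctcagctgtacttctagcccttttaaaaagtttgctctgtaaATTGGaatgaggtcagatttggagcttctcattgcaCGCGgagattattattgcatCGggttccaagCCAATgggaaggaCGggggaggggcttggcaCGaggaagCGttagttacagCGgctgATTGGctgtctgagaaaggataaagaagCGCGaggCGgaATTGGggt
The Sox21 window held 17 CG dinucleotides and was 65.2% G or C, against 11 and 50.8% for Sox4 and medians of 6 and 52.4% over the 32851 upstream windows of this length in the table. Of all windows, 92.1% held at least 1 CG, and 76.5% held fewer than the Sox21 window. CCAAT, the box bound by the factor NF-Y, was searched on both strands, and it occurred 4 times upstream of Sox4 and was not found in the Sox21 window. It was present in 33.8% of all windows, and 0.840% held it 4 or more times. The letters ACAAT, the core of the sequence that Sox proteins bind, were in neither window on either strand and in 27.7% of all windows. The GC box GGGCGG was also in neither, and it was in 32.7% of all windows.

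Sox21 was far brighter in Ebp1 knock out than in wild type MEFs, on 1 of its 2 probe sets. On the brighter probe set the signal was 1572 in knock out and 41.3 in wild type MEFs. It was low in wild type MEFs, so the knock out signal was at least 15.7-fold higher, a log2 ratio of at least 3.97. The other probe set was low on both arrays, at 23.7 in knock out and 29.8 in wild type MEFs. The difference was thus carried by a single probe set, and the sources used here do not place the 2 probe sets on the transcript. In the RefSeq annotation the long noncoding RNA gene Gm4675 overlaps Sox21, and no probe set is assigned to it.

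**Figure D1:**
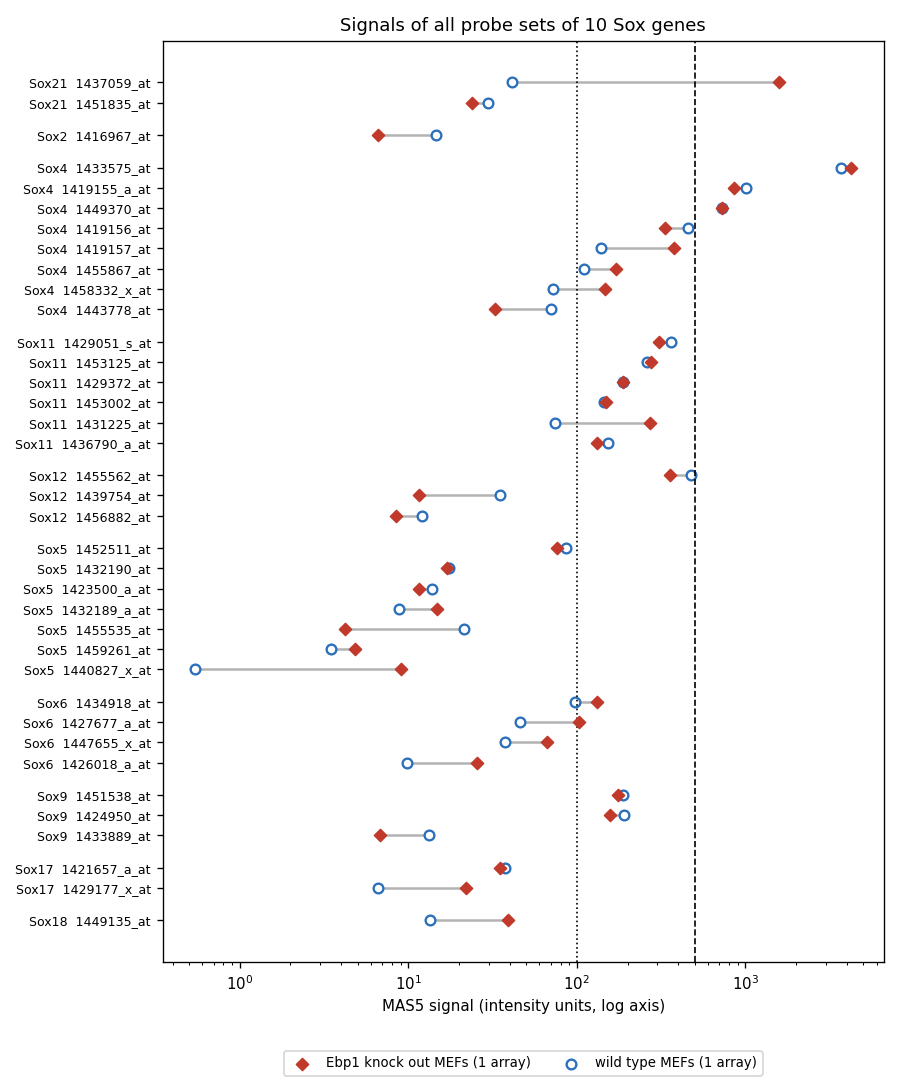
MAS5 signals in intensity units (logarithmic axis) of the 37 probe sets of the 10 Sox genes in Ebp1 knock out MEFs (red diamonds) and wild type MEFs (open blue circles), 1 array each, with dotted and dashed lines at 100 and 500. The upper Sox21 probe set lies at 1572 in knock out and 41.3 in wild type MEFs, while most pairs of the other genes lie close together or under 100 on both arrays.

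Few features on the array had this pattern. Of 7172 probe sets with at least 500 in knock out MEFs, 5 were under 100 in wild type MEFs (0.0697%), and that of Sox21 had the highest bound among them. The others were 2 probe sets of Slco4a1, an organic anion transporter gene (769 in knock out and 44.8 in wild type MEFs, and 501 and 71.8 in the same order), 1 of the noncoding RNA gene Tug1 (639 in knock out and 95.8 in wild type MEFs) and 1 with no gene name here. Tug1 had 2 further probe sets, and neither was low on both arrays or over 2-fold higher in knock out MEFs. In the opposite direction, 8 of 7303 probe sets with at least 500 in wild type MEFs were under 100 in knock out MEFs. By brightest probe set, the bound of Sox21 was the highest log2 ratio of the 10553 genes with at least 100 on 1 array.

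The genes with the pattern nearest to that of Sox21 were found from the distance between log2 signals over the 2 arrays, with low signals raised to 100. The nearest was Epcam, an epithelial adhesion gene, at a distance of 0.83, with 1350.5 in knock out and 174 in wild type MEFs. It was followed by Grb14, an adaptor of receptor tyrosine kinases (distance 1.48, 996 in knock out and 251 in wild type MEFs), and by Cyp26b1, which encodes an enzyme that degrades retinoic acid (1.55, 699.6 in knock out and 203 in wild type MEFs). Plac8 (1.55) and the chemokine gene Cxcl5 (1.62) completed the 5 nearest. All 5 were measurable in wild type MEFs, unlike Sox21. Only the brightest probe set of each gene was used, and Slco4a1, also low in wild type MEFs, was not among the 5. The other probe set of Epcam and that of Grb14 were low on both arrays, as was the other one of Sox21. There are only 2 points per gene, so this likeness is a description only.

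The genes next to Sox21 on the chromosome were also read. Within 1.5 Mb on either side, a distance chosen after values were seen, 13 genes had a probe set and 7 reached 100 on 1 array. None of the 7 was over 2-fold apart on its brightest probe set, and their log2 ratios ran from -0.46 to 0.24. Over all genes with at least 100 on 1 array 1.88% were over 2-fold apart, so 0 of 7 does not set these genes apart from others. The nearest measurable neighbours were Gpr180 on 1 side (704 in knock out and 797 in wild type MEFs, -0.18) and Abcc4, a transporter gene, on the other (283 in knock out and 240 in wild type MEFs, 0.24, or -0.15 after scaling to the spike-ins). A dimmer probe set of Dzip1, a gene of cilium formation, was 112 in knock out and 244 in wild type MEFs (-1.12), while its brightest one gave -0.46.

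Sox2, the SoxB factor that Sox21 is known to oppose, was low on both arrays, with 6.59 in knock out and 14.7 in wild type MEFs on its only probe set. Sox2ot, the noncoding RNA gene that spans Sox2, was low as well (3.55 in knock out and 3.75 in wild type MEFs). The other SoxB genes Sox1, Sox3 and Sox14 did not reach 100 on any of their probe sets. Sox3 was the brightest of these, at 56.2 in knock out and 62.5 in wild type MEFs. Of 8 SoxB probe sets on the array, 7 were low on both arrays, and the exception was that of Sox21.

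Sox4 gave bright and nearly equal signals, with 4233 in knock out and 3714 in wild type MEFs on its brightest probe set (log2 ratio 0.19). This sign depended on the scaling and turned to -0.20 when the arrays were scaled to the spike-in controls. Among its 8 probe sets, 6 were measured on both arrays, of which 3 were higher and 3 lower in knock out MEFs. The next brightest was 855 in knock out and 1012 in wild type MEFs (-0.24). The third was 724 in knock out and 731 in wild type MEFs (-0.01), and the fourth was 335 in knock out and 455 in wild type MEFs (-0.44). These 3 were level or lower in knock out MEFs. The fifth was over 2-fold apart, at 377 in knock out and 139 in wild type MEFs (1.44), and it stayed so under each scaling tried, with 1.05 as the lowest value. The sixth was 171 in knock out and 111 in wild type MEFs (0.63). The seventh was 146 in knock out MEFs and low in wild type MEFs (72.2), and the eighth was low on both arrays. The probe sets of Sox4 thus did not give 1 ratio. The 6 measured ones spanned 1.88 on the log2 scale, against a median span of 0.74 over the 174 genes with at least 5 such probe sets, and 3.45% of these genes spanned as much or more.

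Sox11, another SoxC gene, was 308 in knock out and 362 in wild type MEFs on its brightest probe set (-0.23), but 0.18 as the mean over all probe sets and 0.07 without suffixed ones. Its other 4 probe sets measured on both arrays gave log2 ratios from -0.22 to 0.07, so the 5 lay close to 0. The remaining probe set was 273 in knock out MEFs and low in wild type MEFs at 74.6, at least 2.73-fold higher. Here too a single probe set stood apart from the rest of its gene, and it was low in wild type MEFs only. Sox12, the third SoxC gene, was 358 in knock out and 473 in wild type MEFs (-0.40), just short of 500, and its other 2 probe sets were low on both arrays. Its sign was the same under all settings tried, with log2 ratios from -0.79 to -0.13.

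The cartilage factors Sox5, Sox6 and Sox9 were dim. None of the 7 probe sets of Sox5 reached 100, and the brightest was 76.6 in knock out and 86.7 in wild type MEFs. Sox6 was 132 in knock out and 97.7 in wild type MEFs, just under the limit for a low signal, which gives a ratio of at least 1.32-fold. A further Sox6 probe set, at 104 in knock out and 46.1 in wild type MEFs, lay just above that limit on 1 array, and the other 2 were low on both. All 4 Sox6 probe sets had the higher signal in knock out MEFs, but 2 of them were low on both arrays, where no ratio was formed. Sox9 was 176 in knock out and 189 in wild type MEFs on its brightest probe set (-0.10), and 158 in knock out and 190 in wild type MEFs on the next (-0.27). Its remaining probe set was low on both arrays.

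Sox17 and Sox18, of the SoxF group, were low on both arrays. Sox17 was 35.1 in knock out and 37.7 in wild type MEFs on its brightest probe set, and its other one was 22.1 in knock out and 6.60 in wild type MEFs. Sox18 was 38.9 in knock out and 13.4 in wild type MEFs on its only probe set. Sox7, the remaining SoxF gene, was also low, so all 5 SoxF probe sets were under 100 on both arrays.

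**Figure D2:**
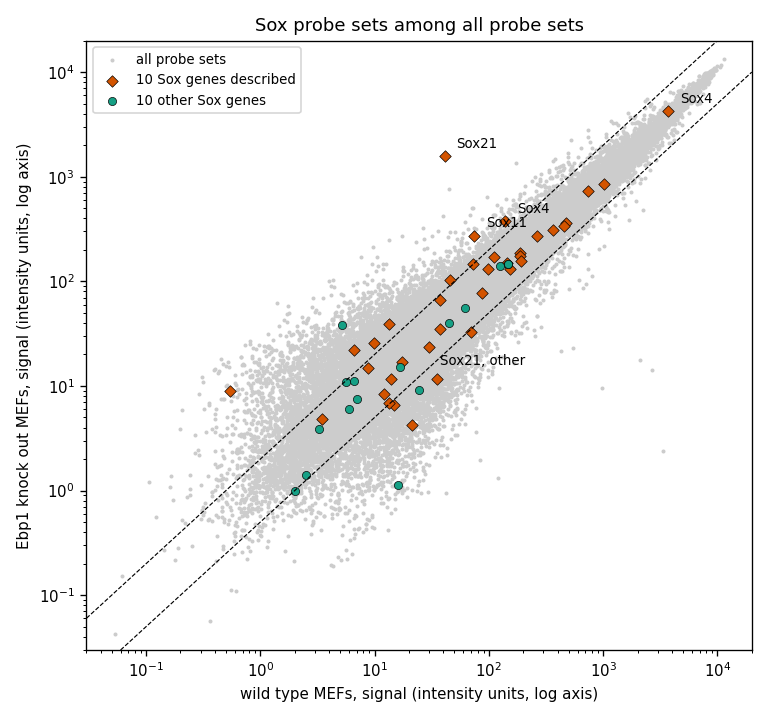
MAS5 signals in intensity units of wild type MEFs (horizontal) and Ebp1 knock out MEFs (vertical), both axes logarithmic, for all 45037 probe sets (grey), the 37 of the 10 Sox genes described (orange diamonds) and the 16 of 10 other Sox genes (green circles), with dashed lines at a 2-fold ratio. Sox21 stands alone above the cloud, and the labelled Sox11 probe set and the dimmer of the 2 labelled Sox4 ones lie above the upper line.

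Counted over the 10 genes, 6 had a brightest probe set of at least 100 on 1 array and 2 reached 500. Sox21 was the only 1 of these that was over 2-fold apart, and Sox4 was within 2-fold. Over all genes that reached 500, 91 of 5014 (1.81%) were over 2-fold apart on the brightest probe set, 38 of them higher in knock out MEFs (0.758% of the 5014) and 53 lower. Median centring changed this split to 27 higher against 70 lower, and the spike-in scaling changed it to 15 against 252. By probe set, 1 of the 4 Sox probe sets that reached 500 was over 2-fold apart, against 2.58% of all probe sets that did so. Of the 37 Sox probe sets, 18 were low on both arrays and 19 reached 100 on 1 array, and 3 of these 19 were over 2-fold apart, all higher in knock out MEFs (Sox21, Sox4 and Sox11, 1 probe set each). Among all probe sets that reached 100, 2.63% were over 2-fold apart. The 10 genes were selected on these same ratios, so nothing is read from their counts.

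Of the 10 Sox genes of the mouse array outside this set, which were taken whatever their signal, 8 were low on both arrays. Sox10, a factor of neural crest and Schwann cells, was 148 in knock out and 148 in wild type MEFs (-0.01). Sox13, of the SoxD group, was 140 in knock out and 125 in wild type MEFs (0.17, or -0.22 after scaling to the spike-ins). None of these 10 genes reached 500, and none of the 3 probe sets that reached 100 was over 2-fold apart, where 2.63% of all probe sets at that minimum were. The low ones were Sry, Sox1, Sox3, Sox7, Sox8, Sox14, Sox15 and Sox30, whose signals ran up to 62.5.

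The factors that work with Sox proteins in other cells were within 2-fold where they reached 100. Of 16 such genes with a probe set, 11 did so and none was over 2-fold apart. Over all genes at this minimum 1.88% were, so this count does not set these factors apart from others. Their median log2 ratio was 0.01 (-0.10 after median centring and -0.39 after scaling to the spike-ins). Over all genes that reached 100 it was -0.06 (-0.16 and -0.43 in the same order). Ctnnb1, which encodes beta-catenin, a partner and antagonist of several Sox proteins, was 5229.9 in knock out and 5348 in wild type MEFs (-0.03). Kpnb1, the gene of the importin that carries Sox proteins into the nucleus, was 1695 in knock out and 1533 in wild type MEFs (0.15, or -0.25 after scaling to the spike-ins). The histone deacetylase gene Hdac1 was 1422 in knock out and 1820.0 in wild type MEFs (-0.36). The POU factors that pair with Sox proteins in the nervous system were low on both arrays, except Pou3f3 at 276 in knock out and 339 in wild type MEFs (-0.30). Lef1 and Mef2c were also low on both.

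Markers of the cell types in which Sox factors are best known were read beside these values. Over 10 cell type lists and the cofactor list, 137 genes had a probe set, 59 reached 100 and 28 reached 500. At a minimum of 100, with low signals raised to it, 3 were over 2-fold higher and 3 over 2-fold lower in knock out MEFs. Of all genes at that minimum, 1.88% were over 2-fold apart either way. The spike-in scaling gave 2 higher against 6 lower in the lists, and 30 higher against 516 lower among all 10661 genes that reached 100 under it. As the lists were chosen with earlier results of these data known, no excess is read from these counts. The cultures had the signals of fibroblasts, as all 15 fibroblast and mesenchyme genes reached 100. Col1a1, a fibrillar collagen gene, was 7920.1 in knock out and 7401 in wild type MEFs, and Vim, the gene of the filament protein vimentin, was 11051 in knock out and 9308 in wild type MEFs. Fap, which encodes a serine protease of activated fibroblasts, was the only 1 of the 15 over 2-fold apart (155 in knock out and 409 in wild type MEFs, -1.40).

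Neural markers were mostly low. Of 19 genes of neural progenitors and neurons with a probe set, 11 were low on both arrays, among them Pax6, a defining progenitor factor, at 32.5 in knock out and 56.5 in wild type MEFs. Over all genes, 10553 of 18193 reached 100 on 1 array, so low signals on both arrays were common. The counts of low genes in this and the other lists are therefore not read as absence of a cell type. The summed signal of the list was 4158 in knock out and 4270 in wild type MEFs. Its brightest genes were Ncam1, at 1063 in knock out and 1453 in wild type MEFs, and Map2, at 1059 in knock out and 840 in wild type MEFs. Stmn2, a gene of growing axons, was 445 in knock out and 202 in wild type MEFs (1.14), and it was within 2-fold after scaling to the spike-ins (0.75). In the opposite direction, Msi1, which encodes an RNA-binding protein of neural progenitors, was 183 in knock out and 298 in wild type MEFs (-0.71), and the receptor gene Notch1 was 284 in knock out and 435 in wild type MEFs (-0.61). After scaling to the spike-ins none of the list was over 2-fold higher and 2 were over 2-fold lower in knock out MEFs. Over all 10661 genes that reached 100 under this scaling, 30 were over 2-fold higher and 516 over 2-fold lower, so most calls under it were lower. Nes, which encodes the progenitor filament nestin but is also made in cultured mesenchyme, was 470.5 in knock out and 344 in wild type MEFs (0.45). Of the 8 genes that reached 100, 4 were higher and 4 lower in knock out MEFs, and their median was -0.06, against -0.06 over all genes. Of 8 neural crest and Schwann cell genes, 6 were low on both arrays, among them the neural crest factor Foxd3 at 25.5 in knock out and 6.21 in wild type MEFs. The endothelin receptor gene Ednrb was 270.3 in knock out and 187 in wild type MEFs (0.53), and the transcription factor gene Tfap2a was 149 in knock out and 126 in wild type MEFs (0.24). The median of these 2 was 0.38, and the list gave -0.15 after scaling to the spike-ins, when 3 of its genes reached 100.

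By summed signal, epithelial markers were the list that was highest in knock out relative to wild type MEFs. The lists were chosen with earlier results of these data known, so this rank is a description only. The summed signal of the 15 epithelial and hair genes was 2803 in knock out and 1064 in wild type MEFs, and it was 1453 in knock out and 890 in wild type MEFs without Epcam. The high Epcam signal came from 1 probe set, and its other one was low on both arrays (4.07 in knock out and 5.81 in wild type MEFs). Perp, a gene of desmosomes that is also a p53 target, was 494 in knock out and 150 in wild type MEFs (1.72). With low signals raised to 100, Epcam and Perp were the only ones of the 6 that reached 100 to be over 2-fold apart. Among the other 4 that reached 100, the keratin gene Krt19 was 197 in knock out and 88.0 in wild type MEFs, at least 1.97-fold higher. The claudin gene Cldn4 was 121 in knock out and 36.2 in wild type MEFs, at least 1.21-fold higher. Both folds are lower bounds and do not place Krt19 and Cldn4 within 2-fold. The other 2 had the lower signal in knock out MEFs, with the basal keratin gene Krt5 at 108 in knock out and 138 in wild type MEFs (-0.35) and the epithelial factor gene Grhl2 at 126 in knock out and 184 in wild type MEFs (-0.54). The 9 remaining genes were low on both arrays, among them the E-cadherin gene Cdh1 at 19.5 in knock out and 11.5 in wild type MEFs, a further basal keratin gene, Krt14, at 44.5 in knock out and 35.5 in wild type MEFs, and Trp63 at 31.3 in knock out and 16.3 in wild type MEFs. No direction is read from those 9 genes, as no ratio was formed. The median log2 ratio of the 6 was 0.63, against -0.06 over all genes that reached 100. Its middle values were the bounds of Krt19 and Cldn4, so this median is itself a lower bound. After scaling to the spike-ins 7 genes reached 100 and the median was 0.08, under that of the cartilage list (0.11), against -0.43 over all genes. Whether cells of this type contributed to the Sox21 signal was not tested.

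Of the 15 cartilage genes of the list, which Sox9, Sox5 and Sox6 are known to drive, 7 reached 100 on 1 array. With low signals raised to 100, none of the 7 was over 2-fold apart, where 1.88% of all genes at this minimum were. Col2a1, the main collagen gene of cartilage, was 781 in knock out and 514 in wild type MEFs (0.60), and Col11a1 was 2126 in knock out and 2072 in wild type MEFs (0.04, or -0.35 after scaling to the spike-ins). Matn3, a matrix gene of cartilage, was just within 2-fold at 229 in knock out and 117 in wild type MEFs (0.98). Acan, the gene of aggrecan, was low on both arrays, at 93.9 in knock out and 46.1 in wild type MEFs. The median of the 7 was 0.35 and stayed above 0 under each scaling. The middle gene was Col10a1, at 128 in knock out and low in wild type MEFs (17.8). Its 0.35 is thus a lower bound and does not place it within 2-fold. Col11a2 was low in knock out MEFs only, at 84.6 in knock out and 101 in wild type MEFs.

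The endothelial genes that go with the SoxF group were mostly low on both arrays, in 11 of 15 cases, with Pecam1 at 9.97 in knock out and 12.2 in wild type MEFs and Cdh5 at 17.3 in knock out and 34.2 in wild type MEFs. Flt1, which encodes a VEGF receptor, was 100.3 in knock out and 329 in wild type MEFs (-1.71), while Kdr, the gene of the other main VEGF receptor, was 156 in knock out and 101 in wild type MEFs (0.63). Of the lymphatic genes, Prox1 was low on both arrays, and Pdpn, a mucin-like gene also made by fibroblasts, was 1159.7 in knock out and 2561 in wild type MEFs (-1.14). The only other measured gene of these 4, the VEGF receptor gene Flt4, was 255 in knock out and 149 in wild type MEFs (0.78). All 10 pluripotency genes were low on both arrays, among them Pou5f1 at 19.0 in knock out and 16.6 in wild type MEFs and Nanog at 22.1 in knock out and 19.5 in wild type MEFs. Of the endoderm genes only Gata6 reached 100 (133 in knock out and 104 in wild type MEFs, 0.35, or -0.04 after scaling to the spike-ins), and Foxa2 was low on both. The muscle factor Myod1 was low on both arrays as well.

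**Figure D3:**
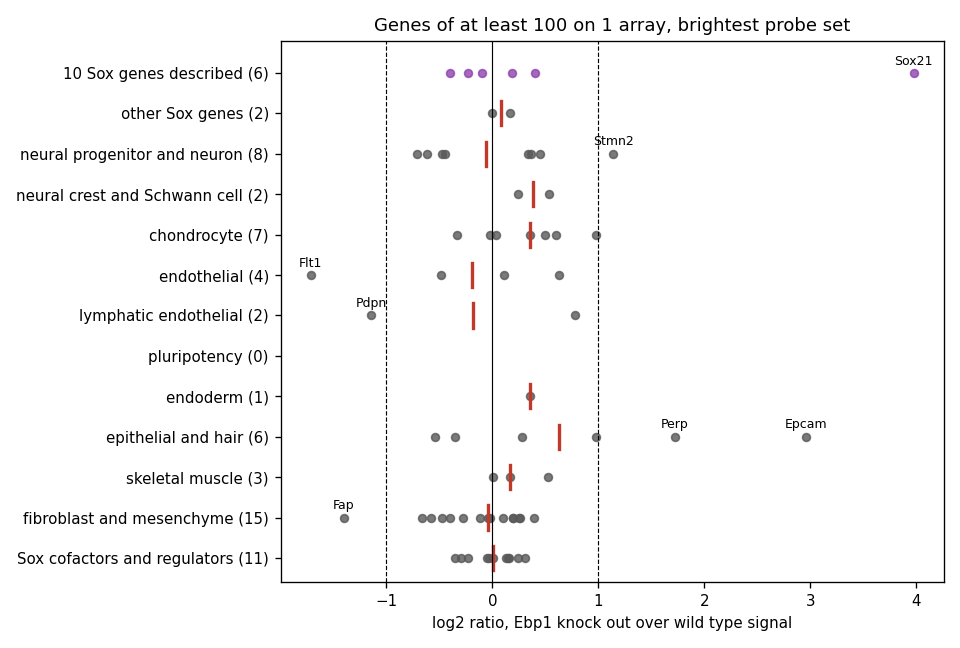
Log2 ratio of Ebp1 knock out over wild type signal (horizontal axis) for each gene with at least 100 intensity units on 1 array, by list, with the number of such genes in parentheses, low signals raised to 100, red bars at list medians and dashed lines at a 2-fold ratio. Sox21 (at least 3.97) and Epcam (2.96) lie farthest to the right, and the fibroblast and cofactor genes lie within 2-fold except Fap (-1.40).

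Scaling, the treatment of low signals and the choice of probe set moved the ratios of the other 5 measured Sox genes by less than 1.5-fold, and Sox21 moved by more. Over 8 alternatives the log2 ratio of Sox21 lay between 1.99 and 5.25, and it was over 2-fold higher in knock out MEFs in each. The lowest value is the mean over its 2 probe sets, with the probe set that was low on both arrays taken as 0, and the highest is the ratio of the signals as deposited, with the wild type signal not raised to 100.

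**Figure D4:**
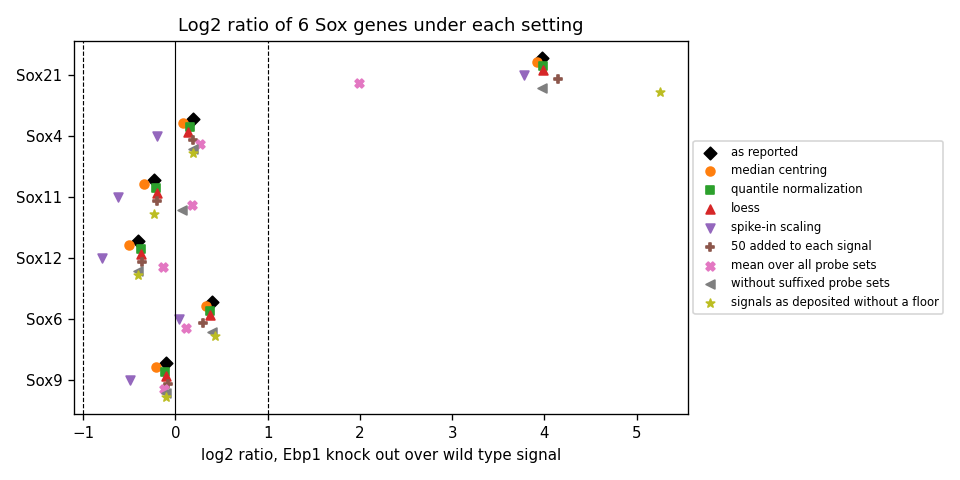
Log2 ratio of Ebp1 knock out over wild type signal (horizontal axis) of the 6 Sox genes with a brightest probe set of at least 100 on 1 array, under the reported setting (black diamonds) and the alternatives named in the legend, with dashed lines at a 2-fold ratio. Sox21 lies between 1.99 and 5.25, and the other 5 genes lie between -0.79 and 0.43.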

How the data were processed

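Biotin-labeled cRNA from MEFs of each genotype was hybridized to 1 Affymetrix array. The deposited values are 1 linear signal intensity per probe set, made by the authors with MAS5 from perfect match and mismatch probes with both arrays brought to the same average intensity. The array type named in the methods differs from the mouse array to which the probe set identifiers are annotated. After 64 control probe sets were left out, 34945 of 45037 probe sets had 1 gene symbol, 932 had several and 9160 were unnamed here. Symbols were updated to GRCm38.p6 through Entrez identifiers.

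The value compared was the log2 ratio of the knock out over the wild type signal, with a signal under 100 raised to 100. A gene was called when its brightest probe set reached 500 on 1 array, the minimum of the methods, and was over 2-fold apart. No test was run, as 1 array per genotype leaves no spread between replicates and limits the precision. The named genes were the 10 Sox genes, all other Sox genes, the 5 genes nearest to Sox21, its neighbours, Pa2g4, and of each list the genes with at least 500 that were over 2-fold apart, the 3 brightest others and defining markers. Not every gene this rule covers is printed, and Slco4a1, Tug1, Sox2ot, Dzip1, Gpr180, Perp, Flt1, Fap, Stmn2, Matn3, Col10a1, Col11a2, Cdh1, Trp63, Krt19, Krt5, Cldn4, Grhl2, Msi1, Notch1, Ednrb, Tfap2a, Flt4, Pou3f3, Lef1 and Mef2c were named after their values were seen. The members and lists were chosen with earlier results of these data known. Lists are described by counts and medians only. Results were recomputed with median centring of log2 signals, with quantile normalization, with loess (fraction 0.3), scaling to 9 spike-in probe sets, 50 added to each signal, the mean over all probe sets, probe sets without suffixes, other minima and other fold thresholds. An alternative with no floor on the signals was chosen after seeing the data. The steps were tested on simulated data. Computations used numpy 2.4.6, pandas 2.3.3 and statsmodels 0.14.6 under Python 3.11.15, and plots used matplotlib 3.10.9.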

Additional observations from a re-analysis of the deposited data

How the results depend on the processing

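Of 48 log2 ratios of the 6 measured Sox genes under 8 alternatives, 2 moved by over 1.5-fold, both of Sox21. Its bound of 3.97 became 1.99 with the mean over all probe sets and 5.25 with signals as deposited (an alternative chosen after seeing the data). Sox21 was the only 1 of the 10 genes over 2-fold apart under each setting but 1. With 500 on both arrays required, 0 of the 10 members were over 2-fold apart, since the wild type signal of Sox21 was low. The sign changed in 3 cases, all within 2-fold, for Sox4 with spike-ins (-0.20) and for Sox11 with the mean over all probe sets (0.18) and without suffixed probe sets (0.07). Relative to the deposited scaling, median centring moved the median log2 ratio of all probe sets by -0.11 and spike-ins moved it by -0.39, which lowers each ratio of 2 measured signals by the same amount and a bound by less. The count of 91 genes over 2-fold was 267 with spike-ins, 59 with the mean over all probe sets, 198 with a minimum of 100, 23 with 500 on both arrays, 406 at 1.5-fold and 24 at 3-fold. Other minima and thresholds admit other genes by construction. The cause of the spike-in and mean counts was not tested. The list genes over 2-fold apart with at least 500 numbered 2 (3 with spike-ins), and the other Sox genes numbered 0 under each of the 8 alternatives. No paired analysis was possible because each genotype has a single array.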
